A study of Homo sapiens with 4 samples.

Results

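The zinc finger genes described here are the protein-coding genes of chromosome 19 that carry a ZNF number as their symbol and were read at least once in H9, a human embryonic stem cell line kept in the primed state. The deposited table lists 208 such genes on chromosome 19 among 16174 genes. Members were chosen by their TPM, which had to be above 0 in at least 1 of the 4 libraries, and 187 of the 208 met this rule. TPM is the number of reads per length of gene, set to the same total in every library. Because the rule used these TPM values, the levels below are a description and carry no test.

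Poly(A) RNA was copied from an oligo-dT primer, amplified by PCR and read on a nanopore sequencer. All cells carried a doxycycline-inducible dCas9-BFP-KRAB, a nuclease-dead Cas9 joined to a blue fluorescent protein and to the KRAB repressor domain, placed by the piggyBac transposase and selected with puromycin. One pair of libraries came from cells with 4 pooled guides against SNHG26, a long non-coding RNA gene, and the other pair from cells with non-targeting control guides. In each arm, cells were harvested after 2 or 3 days of 1 µg/mL doxycycline, so every combination of guides and day is 1 library. All 4 libraries therefore came from cells with induced dCas9-KRAB, and no library without doxycycline was analysed here. Nothing in the labels says that the libraries came from separate transfections or cultures, so p-values measure only the spread between these libraries, which may be technical. Within an arm that spread includes the difference between the days, and within a day the difference between the guides.

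A zinc finger of the C2H2 type is a short loop of protein held by a zinc ion, and an array of such fingers in a row reads a stretch of DNA. In most of the genes on chromosome 19, the array is joined to a KRAB domain, which recruits the scaffold protein TRIM28 and with it enzymes that compact chromatin. The genes arose by repeated duplication in tandem and lie in clusters of near relatives, and many of their proteins bind transposable elements, which they keep silent in pluripotent cells. The KRAB domain fused to dCas9 for repression is of the kind that these genes encode.

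Members were grouped by position into blocks, with a new block wherever the starts of neighbouring listed genes lay over 1 Mb apart, which gave 16 blocks numbered along the chromosome. The promoter letters differed between these blocks, and 7 promoter stretches are printed to show how. Each is the 100 bases directly before the start that RefSeq gives (build GRCh38.p14), read 5′ to 3′ on the strand of the gene, outside every gene the table lists. Capitals mark CCGGAAG, the letters of an ETS-type site, and CCAATCAG, the letters of an extended CCAAT box, each on either strand (CTTCCGG and CTGATTGG are the same letters on the other strand). The first pair belongs to block 6, the next pair to block 5, and the last 3 to blocks 3, 15 and 16 in that order. In each block they are the members with the most estimated reads among those with the letters in such a stretch (CCGGAAG, or in block 3 CCAATCAG).
ZNF91, chr19:23395472-23395571, minus strand: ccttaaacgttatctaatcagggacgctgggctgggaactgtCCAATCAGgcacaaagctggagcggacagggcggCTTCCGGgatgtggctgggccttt
ZNF724, chr19:23250395-23250494, minus strand: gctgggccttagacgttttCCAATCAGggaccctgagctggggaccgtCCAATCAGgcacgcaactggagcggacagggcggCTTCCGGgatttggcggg
ZNF100, chr19:21767580-21767679, minus strand: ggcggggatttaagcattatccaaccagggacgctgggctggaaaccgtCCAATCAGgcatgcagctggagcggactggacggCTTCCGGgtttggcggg
ZNF66, chr19:20776204-20776303, plus strand: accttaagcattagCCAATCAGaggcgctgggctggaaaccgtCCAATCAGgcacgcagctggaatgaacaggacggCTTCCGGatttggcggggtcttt
ZNF69, chr19:11887682-11887781, plus strand: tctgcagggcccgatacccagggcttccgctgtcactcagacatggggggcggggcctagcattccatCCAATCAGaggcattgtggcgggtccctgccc
ZNF175, chr19:51571183-51571282, plus strand: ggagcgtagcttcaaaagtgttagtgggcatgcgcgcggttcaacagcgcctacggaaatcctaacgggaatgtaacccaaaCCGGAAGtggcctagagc
ZNF776, chr19:57746715-57746814, plus strand: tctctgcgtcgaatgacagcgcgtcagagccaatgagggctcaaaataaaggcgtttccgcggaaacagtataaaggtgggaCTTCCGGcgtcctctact

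The stretches of ZNF91, ZNF724, ZNF100 and ZNF66 have the same layout. In each, CCAATCAG lies 34 bases before CTTCCGG, counted from first letter to first letter, and the 40 bases before CTTCCGG are the same at 82.5% to 87.5% of positions between any pair of them, without gaps. The stretch of ZNF776, from the far end of the long arm, also holds CTTCCGG, but its 40 bases before it match the other 4 at 17.5% of positions or fewer. Genes of such clusters arose by duplication, so shared letters are not independent observations.

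Of the 187 members, 166 matched a RefSeq promoter window (250 bases before to 50 after the start). CCAATCAG stood in 47 of them (28.3%), against 4.16% of all 27305 promoters of the same length, 12.7% of the 150 promoters of ZNF genes on other chromosomes and 8.16% of the 613 of other protein-coding genes of chromosome 19. It was spread unevenly by position. All 18 promoters of block 5, all 6 of block 6 and 17 of the 20 of block 3 held it, as did 3 of 4 in block 1. Outside blocks 3, 5 and 6, it stood in 6 of 122 members (4.92%), a share near that of all promoters. None of the 36 promoters of block 16 and 1 of the 30 of block 15 held it. The choice of CCAATCAG was made after the printed stretches had been seen.

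CCGGAAG had another distribution. It stood in 74 of the 166 member promoters (44.6%), in 42.0% of those of ZNF genes elsewhere, in 17.5% of those of other chromosome 19 genes and in 10.7% of all promoters. Blocks 15 and 16 of the long arm held it in 18 of 30 and 22 of 36 promoters, block 6 in 6 of 6, block 5 in 10 of 18, but block 3 in 2 of 20 and block 9 in 3 of 19. Both sets of letters together were found in 16 of the 24 promoters of blocks 5 and 6, in 1 of 122 members outside blocks 3, 5 and 6, and in 0.483% of all promoters. In members, 77.5% of the 80 CCGGAAG matches began within 50 bases of the start, against 52.1% of the 3481 matches in all promoters. The shorter CCAAT letters stood in 54.8% of member promoters, 44.0% of those of ZNF genes elsewhere, 40.3% of those of other chromosome 19 genes and 35.7% of all. GGGCGG, the letters of a GC box, stood in 68.1% of members, 63.3% of ZNF genes elsewhere, 74.9% of other chromosome 19 genes and 44.6% of all promoters. The letters TATAAA, the core of a promoter element near the start of many regulated genes, stood in 2.41% of members, 4.67% of ZNF genes elsewhere, 6.20% of other chromosome 19 genes and 12% of all promoters. The median GC content was 59.7% in members, 62.7% in ZNF genes elsewhere, 65.7% in other chromosome 19 genes and 58.3% in all promoters. Matches of letters are a description and do not show that a factor was bound.

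**Figure D1:**
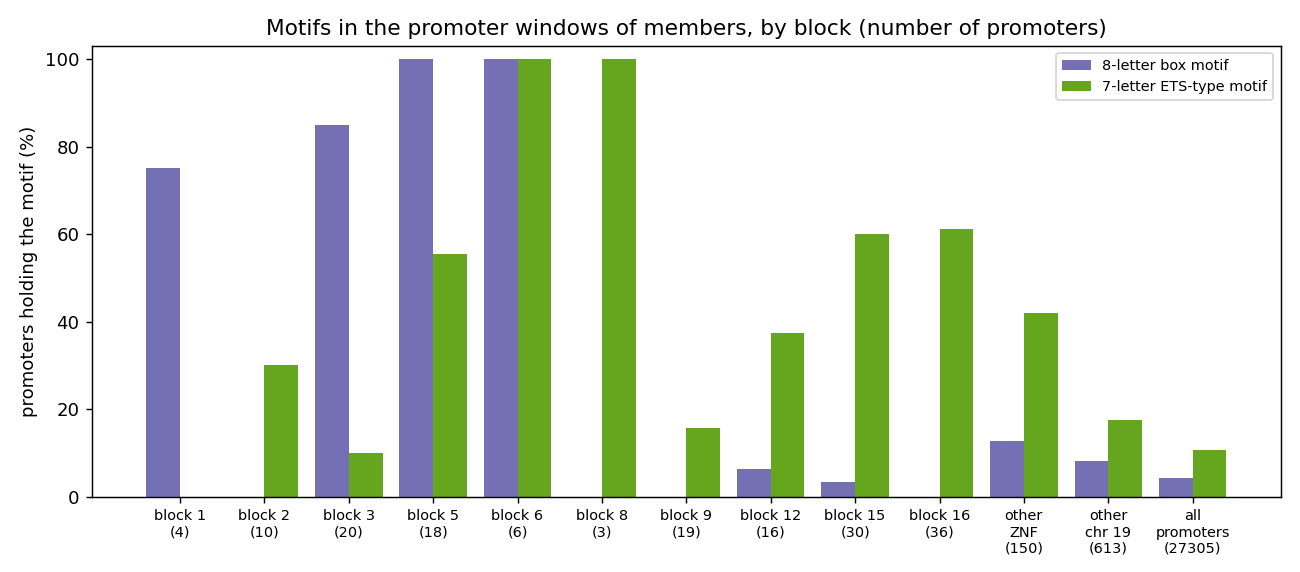
Share of promoter windows holding CCAATCAG (the 8-letter box motif) or CCGGAAG (the 7-letter ETS-type motif), in percent, for member blocks with at least 3 promoters, for ZNF genes of other chromosomes, for other protein-coding genes of chromosome 19 and for all promoters; the number of promoters is in brackets. The bars of the 8-letter motif are high in blocks 1, 3, 5 and 6 and near 0 from block 8 onward, while those of the 7-letter motif in blocks 15 and 16 stand at 18 of 30 and 22 of 36 promoters.

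The members were shallow. Their share of all listed TPM was 0.0518% and 0.0651% in the libraries with SNHG26 guides on day 2 and day 3, and 0.0578% and 0.0599% in those with control guides. In the same order, 129, 143, 139 and 127 of the 187 had a value. A value was present in all 4 libraries for 83 members (44.4%), in 3 for 33, in 2 for 36 and in only 1 for 35. By the same count 53.7% of the ZNF genes of other chromosomes, 64.8% of the other protein-coding genes of chromosome 19 and 60.1% of all genes with a value were present in all 4. The median of the members' mean TPM was 0.723, close to the 0.755 of ZNF genes elsewhere and below the 3.13 of the other chromosome 19 genes and the 1.70 of all genes with a value. The 3 members just inside the rule were ZNF112 at a mean of 0.0549 TPM, ZNF793 at 0.0622 and ZNF71 at 0.0644, and the 21 listed genes just outside it, ZNF264, ZNF460 and ZNF470 among them, were at 0 in every library.

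Where read numbers came out whole, the length in the TPM was a genomic span with introns, of the gene or of 1 transcript. For the other members a genomic span was assumed, so levels of different genes are compared per genomic length. One read on 10 kb was worth between 0.653 and 0.803 TPM in the 4 libraries. Read numbers could be recovered exactly, within 0.0001 read, for 31 members over the gene's span and for 21 more over the span of 1 GENCODE transcript. For 134 others they were estimated from the median transcript span, and for ZNF875 no estimate was made. Summed over the 4 libraries, the estimates had a median of 5.92 reads per member. Under 5 reads stood behind 81 members, between 5 and 20 behind 74 and at least 20 behind 31. All members together had an estimated 676 and 748 reads in the libraries with SNHG26 guides and 674 and 766 in those with control guides (day 2 and day 3), between lower bounds of 321 to 405 and upper bounds of 1210 to 1456. Of the 31 members recovered over the gene's span, 7 rested on 1 whole read in all. Those recovered over a transcript's span, such as ZNF554 with 1 read, are not in that count. Amplified cDNA read without molecular identifiers does not count independent molecules, so these reads show counting error only.

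A few members carried most of the signal. ZNF581, which encodes a short protein with 4 fingers, was listed at 170 TPM (SNHG26 guides, day 2), 344 TPM (SNHG26 guides, day 3), 220 TPM (control guides, day 2) and 282 TPM (control guides, day 3). Both day 3 libraries were above both day 2 libraries. ZNF581 alone made up 45.3% of the members' mean summed TPM but 15.3% of their estimated reads, and the 10 highest members made up 65.3% and 44.6%. ZNF581 overlaps ZNF580 and CCDC106 on the same strand, and whether reads of these neighbours were counted to it was not tested.

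The next levels are given in the same order of libraries, which holds for every run of 4 values below. ZNF358, with 9 fingers, was at 29.6, 22.6, 32.6 and 28.6 TPM. ZNF738 was at 24.4, 20.8, 22.0 and 20.9 TPM, the most even of the high members, on an estimated 239 reads. Its longest annotated coding transcript held the KRAB pattern and no complete finger. ZNF576 was at 24.6, 21.0, 5.70 and 22.3 TPM, so that the control library of day 2 stood apart from the other 3. ZNF146, which consists almost wholly of fingers, was at 7.45, 7.84, 10.3 and 9.06 TPM. ZNF8 had 23, 15, 18 and 27 whole reads and was at 7.03, 4.11, 6.07 and 7.61 TPM, and its arms overlapped.

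Several members of similar mean level varied far more between the libraries. ZNF414 was at 15.1, 2.32, 11 and 0 TPM, ZNF677 at 5.11, 7.01, 1.73 and 11.1, ZNF302 at 8.66, 5.96, 2.16 and 7.89, and ZNF814 at 9.91, 0.997, 4.4 and 3.47. Among the 31 members with at least 20 estimated reads, 29 had a value in all 4 libraries, and the highest library was a median of 2.39 times the lowest, between 1.18 and 23.8 times. That ratio was under 2 for 11 of them and over 5 for 5. Among the 54 members with fewer reads and a value in all 4, its median was 2.96.

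**Figure D2:**
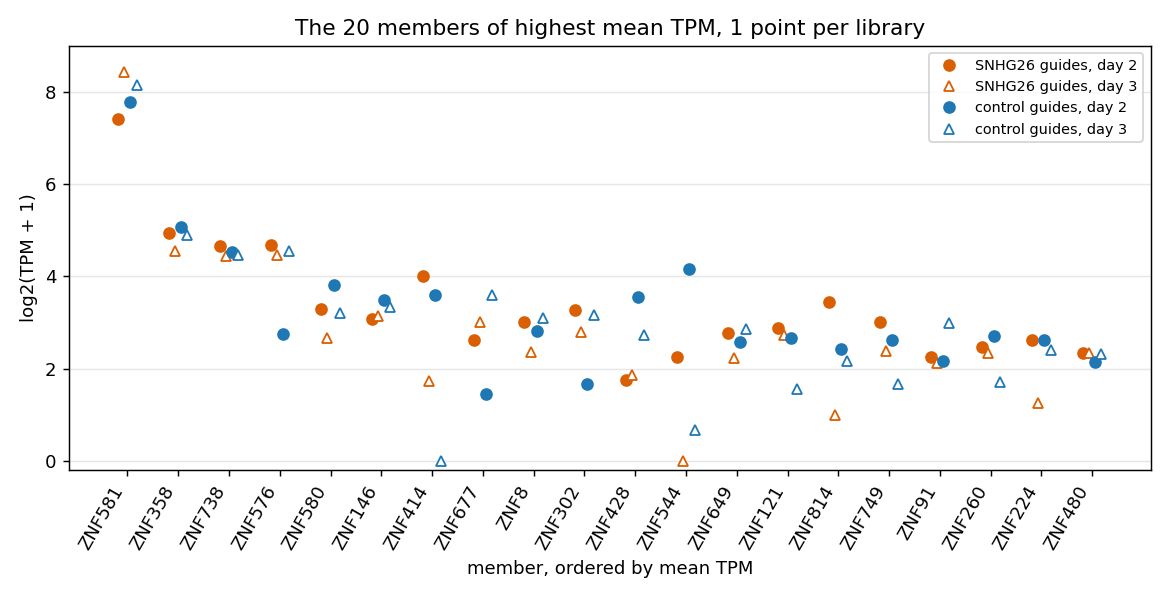
The 20 members of highest mean TPM on the horizontal axis and their log2(TPM + 1) on the vertical axis, 1 point per library (orange, SNHG26 guides; blue, control guides; filled circles, day 2; open triangles, day 3). ZNF581 lies above all others, the 4 points of ZNF738 and ZNF480 nearly coincide, and those of ZNF414 and ZNF544 spread from 0 upward.

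Level also differed with what the genes encode. From GENCODE release 29, coding sequences were found for 186 members, and a pattern of conserved KRAB residues was present in 161 of them and not found in 25. The median mean level was 0.672 TPM with the pattern and 2.29 TPM without, and the median estimated reads were 5.63 and 9.96. ZNF581, ZNF358, ZNF576, ZNF580, ZNF146, ZNF414 and ZNF428 are members without the pattern. ZNF738, at a mean of 22.1 TPM, holds it, so high levels were found in both groups. Members without it also had shorter genes, with a median span of 13413 against 26170 bases, which by itself raises TPM at equal reads. Across members, the rank correlation (Spearman) of span with mean TPM was -0.256 (n = 187) and that of span with estimated reads was 0.0756 (n = 186). These points share the 4 libraries and the span enters the TPM.

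Finger number was only weakly correlated with level. Members had a median of 12 fingers, from 0 in ZNF738 to 31 in ZNF91, against a median of 9 in ZNF genes of other chromosomes, of which 67 of 175 held the KRAB pattern. Its Spearman correlation with mean TPM was -0.123 and with estimated reads 0.0190, both over 186 members.

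**Figure D3:**
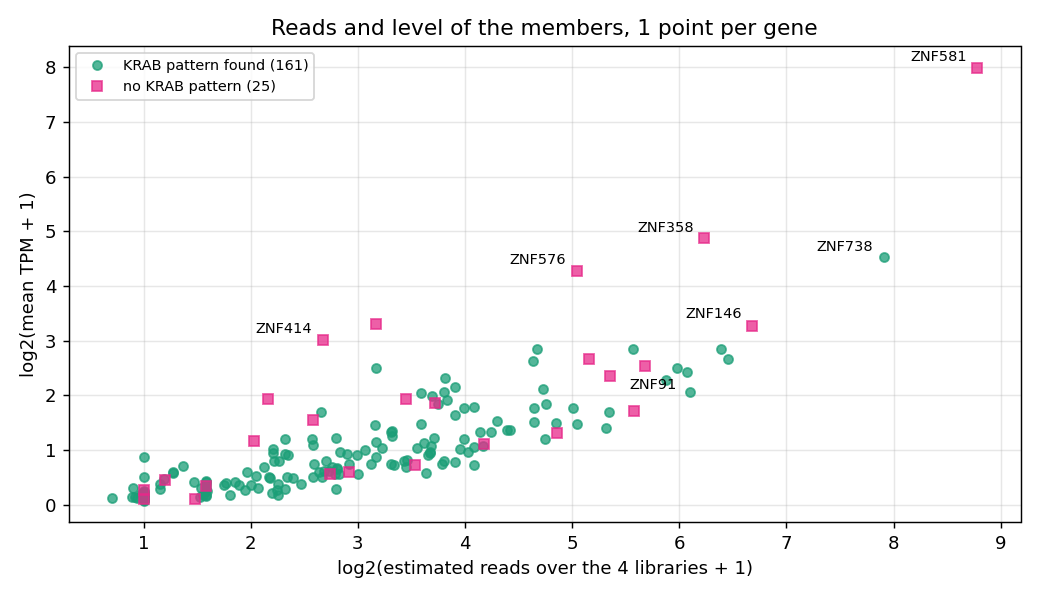
Each point is 1 of 186 members, with the log2 of its estimated reads (plus 1) over the 4 libraries on the horizontal axis and the log2 of its mean TPM (plus 1) on the vertical axis; green circles hold the KRAB pattern (161) and pink squares do not (25). Most points lie at the lower left, and squares such as ZNF581, ZNF576 and ZNF414 lie high in TPM for their reads.

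Along the chromosome, block 16 at the end of the long arm (chr19:55476617-58481230) was the largest, with 51 listed genes, of which 40 had a value and 15 a value in all 4 libraries. Of the 21 listed genes at 0, 11 lay in this block. Its members summed to 242, 401, 317 and 333 TPM, or 57.6% of the signal, mostly from ZNF581. Block 15 (chr19:51571283-53580269) had a value for 36 of its 37 genes and summed to 41.0, 41.0, 40.4 and 49.4 TPM.

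Block 5 on the short arm (chr19:19668796-21852125) was the most completely read of the larger blocks. All 19 of its listed genes had a value, 16 of them in all 4 libraries, on an estimated 654 reads, and their sums were 49.5, 42.1, 51.9 and 47.5 TPM. ZNF738, ZNF626 and the L1 binder ZNF93 lie in it. Its neighbour block 6 (chr19:23075210-24129968), which holds ZNF91, had 6 of 6 genes with a value and 4 in all libraries, with sums of 6.19, 7.93, 7.38 and 12.1 TPM. The 25 members of blocks 5 and 6, whose matched promoters all held CCAATCAG, had a median of 1.31 TPM and 15.3 estimated reads, against 0.723 TPM and 5.92 reads over all members. Over all blocks, members with CCAATCAG had a median of 0.907 TPM and 11.4 reads, and those without 0.679 TPM and 5.00 reads. For CCGGAAG the gap in TPM was similar, at 0.933 TPM with the letters and 0.678 TPM without. The gap in reads was smaller, at 8.92 with the letters and 5.51 without.

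Block 9 of the long arm (chr19:36214602-37817300) was the opposite case. It had a value for 20 of 21 genes but in all 4 libraries for only 3, and its median member was at 0.202 TPM. ZNF146 at its edge and ZNF260, with 11, 11, 12 and 6 whole reads, gave most of its signal. In block 3 (chr19:11483427-12640098), where CCAATCAG was frequent and CCGGAAG was not, 21 of 22 genes had a value, 9 in all 4, and the median member was at 0.622 TPM.

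**Figure D4:**
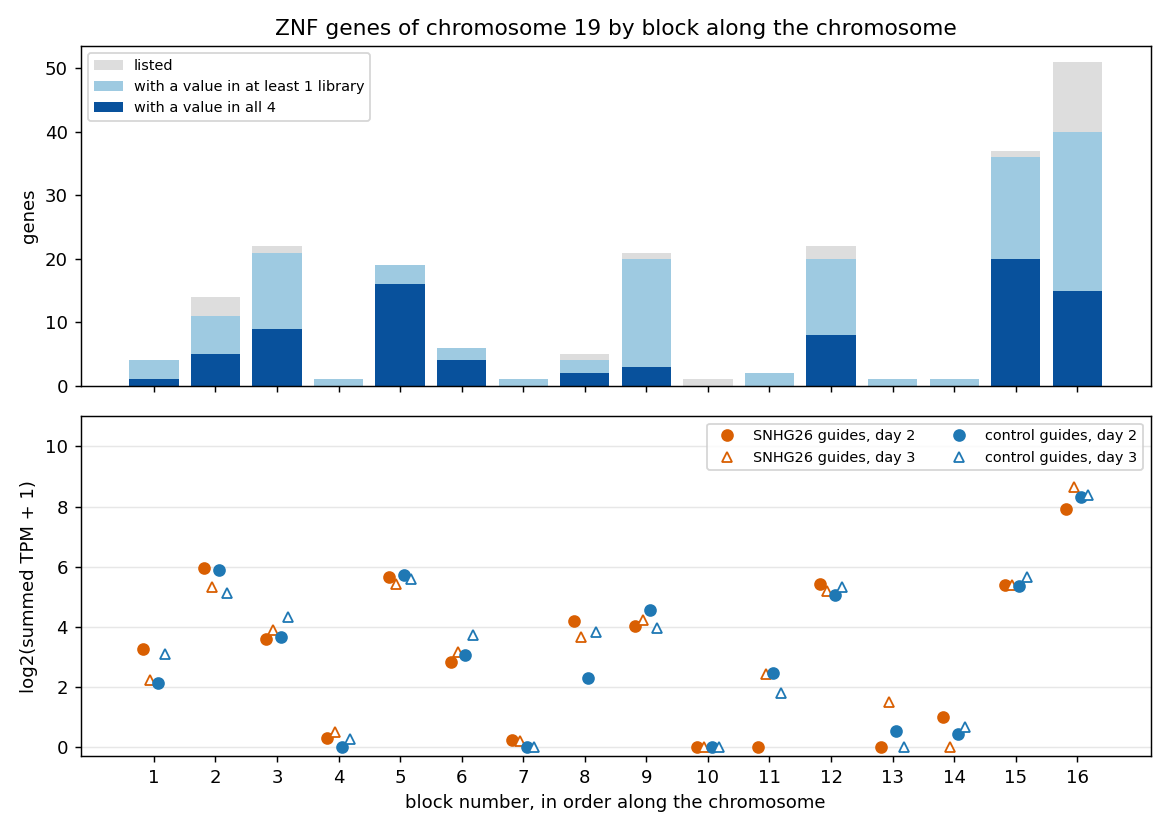
Blocks of ZNF genes in order along chromosome 19 on the horizontal axis; the upper panel counts the listed genes (grey), those with a value (light blue) and those with a value in all 4 libraries (dark blue), and the lower panel shows log2(summed TPM + 1) per library (colours and symbols as in the plot of the highest members). Block 16 holds the most genes and the highest sums, block 5 has values in all 4 libraries for 16 of 19 genes, and block 9 for 3 of 21.

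The guide comparison asks whether repressing SNHG26 changed the transcriptome. SNHG26 itself was listed at 0 and 0.933 TPM with SNHG26 guides and at 2.98 and 4.03 TPM with control guides, below the controls on both days, though limma gave a difference of -1.69 (SE 0.58) on the log2(TPM + 1) scale with an adjusted p of 0.935. Tests ran over the 8274 genes whose mean reached 1 TPM, with Benjamini-Hochberg adjustment at 0.05, and 75 members (40.1%) were among them. The 112 others were too low to be tested. No member passed in the guide comparison, and no gene of the whole table did (0.0%). The smallest adjusted p of a member was 0.755. At an unadjusted p under 0.05 stood 2 members (2.67%), against 337 of all genes (4.07%), a share no larger than that of all genes.

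As a set, the tested members did not move one way. Of the 75, 35 had a higher and 40 a lower mean log2(TPM + 1) with SNHG26 guides, and the median difference was -0.06 (-0.06 on day 2 and -0.03 on day 3), beside 0.04 over all genes tested. The sign of the difference was the same on both days for 36 members (15 higher, 21 lower) and opposite for 36, and the other 3 had a difference of 0 on 1 day. The arms did not overlap in 21 members (28.0%), against 29.2% of all genes tested. Medians over lists of this size shift with the settings, as given in the closing section.

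The summed TPM of the members was 496 and 621 TPM with SNHG26 guides (558 ± 88.3, SD, n = 2) and 554 and 573 TPM with control guides (563 ± 13.5, SD, n = 2). On this measure the arms overlapped, since the SNHG26 guides held both the lowest and the highest library. The log2 ratio of the means was -0.01, with an exact two-sided permutation p of 1; the smallest p that 4 libraries allow is 0.33. Without ZNF581 the sums were 326 and 276 TPM with SNHG26 guides and 334 and 291 TPM with control guides, a log2 ratio of -0.05. Another measure multiplies TPM by the full gene span, which gives upper-bound reads, whole for only 20.6% of genes with a value. Of each library's upper-bound reads, members took 0.116% and 0.119% with SNHG26 guides and 0.131% and 0.125% with control guides. On that measure the arms did not overlap, and the log2 ratio was -0.12 with an exact permutation p of 0.33, the smallest possible.

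ZNF682 of block 5 had the largest member difference between the arms. It was at 0.208 and 0.372 TPM with SNHG26 guides and at 3.97 and 4.34 TPM with control guides, so that both libraries of one arm lay below both of the other. The difference was -2.0 (SE 0.46) on the log2(TPM + 1) scale, with an unadjusted p of 0.011 and an adjusted p of 0.755 by limma, so it did not pass. Its estimated reads were 0.920 and 1.84 against 16 and 20.8, but 13 annotated transcripts of different spans leave its total anywhere from 3.49 to 52.0 reads. ZNF428 of block 12, with 1 finger, was at 2.35 and 2.63 TPM against 10.7 and 5.61 TPM, a difference of -1.33 (SE 0.43, unadjusted p of 0.035, adjusted p of 0.935 by limma). Ranked by the smaller of the differences on the days, the other members named were at -1.07 for ZNF761, -1.42 for ZNF791 and -0.52 for ZNF580 below, and 0.86 for ZNF134, 0.95 for ZNF627, 0.83 for ZNF256, 0.76 for ZNF586 and 0.55 for ZNF749 above. ZNF256 shows the depth behind them, with 2 and 8 whole reads against 1 and 3.

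Within the blocks with the most tested members, directions were mixed. Tested members were higher and lower in number with SNHG26 guides as 5 to 7 in block 5, 6 to 9 in block 15 and 9 to 12 in block 16. Their median differences there were -0.10, -0.06 and -0.07 on the log2(TPM + 1) scale. The 53 tested members that overlap no listed gene were split 29 higher to 24 lower, and the 9 that overlap one on the same strand 1 higher to 8 lower. The 16 that overlap one on the opposite strand were split 6 higher to 10 lower, and a member can be in both overlap classes. The deposited values do not show how reads in overlaps were assigned, and whether that bears on the split was not tested.

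Members known to bind transposable elements ranged from a mean of 0.110 TPM for ZNF611 to 5.18 TPM for ZNF649, beside a median of 0.723 TPM over all members. Of a list of 9 such genes, 8 were members. ZNF91, which binds SVA elements, was at 3.74, 3.35, 3.48 and 6.89 TPM, where the control library of day 3 stood above the other 3. ZNF93, which binds L1 elements, was at 1.35, 1.57, 2.36 and 1.88 TPM, with both SNHG26-guide libraries below both controls. ZNF649 was at 5.84, 3.65, 4.96 and 6.26 TPM and ZNF765 at 2.59, 1.28, 3.33 and 2.39 TPM, each with overlapping arms. ZNF587, which binds LTR5Hs of the endogenous retrovirus HERV-K, was at 0.478, 9.01, 1.58 and 0 TPM, so 1 library held most of its signal. Its gene overlaps that of ZNF814 on the opposite strand. ZNF417, ZNF808 and ZNF611 were below 1 TPM on average and were not tested, and ZNF534 was not analysed here.

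The genes of the co-repressors through which KRAB domains act ranged from TASOR at a mean of 0.130 TPM to TRIM28 at 98.5 TPM. All 16 genes of the co-repressor list had a value and 13 were tested. None passed, with 4 higher and 9 lower with SNHG26 guides and a median difference of -0.12. The arms did not overlap in 29.2% of all genes tested. The tested co-repressor genes without overlap are all named below and lay on both sides. TASOR, too low to be tested, was at 0 TPM with SNHG26 guides and at 0.367 and 0.153 TPM with control guides. TRIM28, itself on chromosome 19, was at 100, 110, 93.6 and 90.7 TPM, with both SNHG26-guide libraries above both controls. Its difference was 0.18 (SE 0.19, adjusted p of 0.945 by limma). MPHOSPH8 likewise lay above both controls, at 2.02 and 2.93 TPM against 1.41 and 1.69 TPM. CBX3, which encodes a heterochromatin protein, was at 71.0 and 67.6 TPM against 82.4 and 71.3 TPM, so the SNHG26-guide libraries lay below both controls by a narrow margin. The margin was wider for CBX5, which encodes another heterochromatin protein and was at 18.5 and 13.6 TPM against 23.8 and 22.3 TPM, a difference of -0.51 (SE 0.29, adjusted p of 0.935 by limma). CHD4, a chromatin remodeller, was at 17.7 and 19.4 TPM against 23.4 and 23.9 TPM, a difference of -0.34 (SE 0.25, adjusted p of 0.935 by limma). PPHLN1, at 1.25 and 1.06 TPM against 1.47 and 1.33 TPM, also lay below both controls. SETDB1, the histone H3 lysine 9 methyltransferase of the complex, was at 1.91, 2.22, 0.209 and 1.95 TPM, with overlapping arms.

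The days were compared in the same way, across arms. Over all genes, 3 passed (0.0363%), and none was a member. The smallest adjusted p of a member was 0.462, and 5 members (6.67%) had an unadjusted p under 0.05, beside 6.61% of all genes tested. The median difference of the 75 was -0.14 on day 3 against day 2 (-0.09 with SNHG26 guides and -0.16 with control guides), beside 0.01 over all genes tested, with 33 higher and 42 lower. The days did not overlap in 31 members (41.3%), against 35.5% of all genes tested.

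The sum over members went one way with ZNF581 and the other way without it. With all members it was 525 ± 41.0 TPM on day 2 and 597 ± 33.9 TPM on day 3 (SD, n = 2 each), a log2 ratio of 0.19 and an exact permutation p of 0.33, the smallest possible. Without ZNF581 it was 330 ± 5.72 TPM on day 2 and 284 ± 9.98 TPM on day 3 (SD, n = 2 each), a log2 ratio of -0.22 that was -0.24 with SNHG26 guides and -0.20 with control guides, again with an exact permutation p of 0.33. As a share of upper-bound reads, the log2 ratio of day 3 to day 2 was -0.01 (exact permutation p of 1), and the days overlapped. The summed whole reads of the members counted over their gene span were 92, 89, 78 and 105.

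The 5 members with an unadjusted p under 0.05 between the days show how few reads such differences hold. ZNF296, whose mouse counterpart is known as a partner of KLF4 in reprogramming, had 2 and 3 whole reads on day 2 (SNHG26 and control guides) and 0 and 0 on day 3, where 3 counts is the limit that a count of 0 allows. ZNF846 rested on 4 whole reads over the span of 1 transcript, all on day 2. ZNF414 had a difference of -2.93 (SE 0.70, unadjusted p of 0.0144 and adjusted p of 0.521 by limma) on an estimated 5.38 reads in all, between bounds of 1.98 and 17.0.

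ZNF544 was at 3.73 and 16.9 TPM on day 2 and at 0 and 0.577 TPM on day 3, a difference of -2.88 (SE 0.80, unadjusted p of 0.024 and adjusted p of 0.625 by limma). Its 20 annotated transcripts leave its total between 2.91 and 132 reads. ZNF581 was the deepest of the 5, with a difference of 0.69 (SE 0.21, unadjusted p of 0.0322 and adjusted p of 0.669 by limma). The other members named for the days by their agreement between arms were ZNF256, ZNF284, ZNF350 and ZNF677 on the higher side, by 0.73 to 1.27, and ZNF749, ZNF580, ZNF737, ZNF708 and ZNF765 on the lower side, by -0.80 to -0.48. ZNF350 encodes ZBRK1, a repressor that binds BRCA1. ZNF284 had 3 and 4 whole reads on day 2 and 7 and 10 on day 3.

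**Figure D5:**
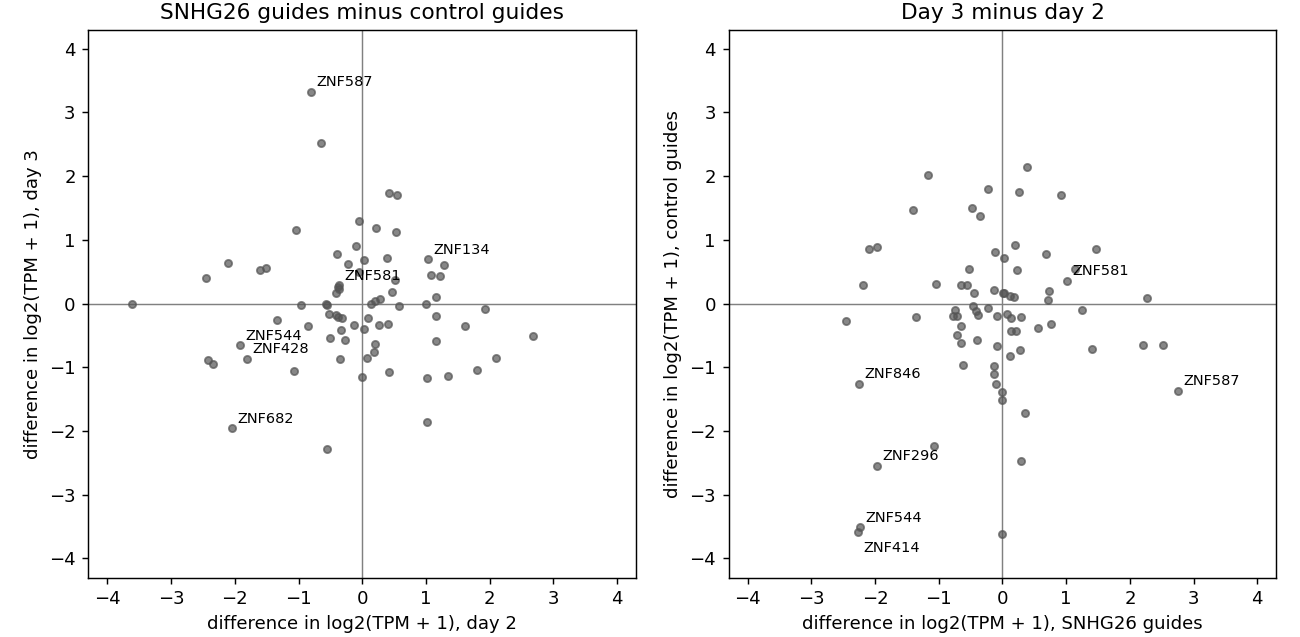
Differences in log2(TPM + 1) of the 75 tested members, 1 point per gene: on the left, SNHG26 guides minus control guides on day 2 (horizontal) and on day 3 (vertical); on the right, day 3 minus day 2 with SNHG26 guides (horizontal) and with control guides (vertical). On the left, 36 of the 75 lie in quadrants of opposite sign, and ZNF682 lies near -2 on both days.

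The libraries held 10603 to 11162 genes with a value. Of 9 markers of primed stem cells, 7 had a value, with POU5F1 at 1050 to 1212 TPM, while ZIC2 was at 0. The 7 summed to 1639 and 1777 TPM with SNHG26 guides and to 1771 and 1881 TPM with control guides, mostly from POU5F1. None of them passed in either comparison, with 3 higher and 4 lower with SNHG26 guides. DPPA4 was at 210 and 183 TPM against 315 and 266 TPM, a difference of -0.56 (SE 0.19, unadjusted p of 0.039, adjusted p of 0.935 by limma). L1TD1, at 83.5 and 87.0 TPM against 97.1 and 89.2 TPM, also lay below both controls. DNMT3B differed by -0.76 with overlapping arms, and the arms overlapped in the other markers with a value. Only some of the markers chosen for other cell types were among the listed genes. These were 1 of 3 of neuroectoderm, 3 of 6 of mesendoderm and endoderm, 1 of 4 of amnion or trophoblast and 2 of 4 of fibroblasts. FOXA2 and EOMES of endoderm and mesendoderm were at 0 in all libraries, and MIXL1 had 1.98 TPM in 1 control library only. KRT7 of amnion or trophoblast reached 1.29 TPM, and NES of neuroectoderm was at 17.1 to 24.5 TPM. The fibroblast genes COL1A1 and COL1A2 summed to 7.95 and 7.99 TPM with SNHG26 guides and to 10.7 and 11.9 TPM with control guides. COL1A1 had overlapping arms, at 4.16 and 2.98 TPM against 3.21 and 4.21 TPM. COL1A2 lay below both controls, at 3.79 and 5.01 TPM against 7.47 and 7.72 TPM. In bulk RNA, fewer cells of a type and less RNA per cell cannot be told apart, and the part of these markers in the member differences was not tested.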

How the data were processed

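Per the labels' protocols, poly(A) RNA was primed with oligo-dT, strand-switched, amplified for 14 cycles of PCR and sequenced on a nanopore instrument. The deposited values are the authors' TPM per gene in 1 table, and per the submitters' processing notes minimap2 2.24-r1122 and GRCh38 were used. The counting tool, its use of strand and the annotation release are not given in the sources used here. Reads of a gene were recovered as TPM times span divided by the worth of 1 read, within 0.0001 read, or estimated from GENCODE release 29 transcript spans. The lower bound takes the shortest transcript and the upper bound the full gene.

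Differences are on log2(TPM + 1), a scale on which low genes change less than on TPM itself. Genes that reached a mean of 1 TPM went into limma 3.58.1 under R 4.3.3 (eBayes with a trend, no day term), adjusted over all 8274. For the guide arms, a check of the procedure on simulated data recovered 78% of 4-fold and 95% of 8-fold changes. The changed genes were drawn only from genes with many reads, more than most members had. The simulated libraries of a group differed by counting error alone, so these shares do not give the recovery at the members' depth. Of the 8086 genes in that check, 64 unchanged ones were also called. Recovery among the members alone was not tested. Single sums used an exact two-sided permutation test.

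The members and lists were chosen with earlier results of these data known. Named members are the 10 highest by mean TPM, the 10 with the most estimated reads, those past a threshold, the 5 each way with the largest smaller change among members moving alike in both pairs of libraries, and listed binders of transposable elements; ZNF296, ZNF414, ZNF846 and those printed for their promoters were named for the counts they make up. Fingers and the KRAB pattern were searched by script in the longest coding transcript, and motifs on both strands of RefSeq promoter windows (GRCh38.p14). Alternatives were other pseudocounts, filters, scalings, no trend, a block, and leaving out each library. The block was the day for the arms and the guide arm for the days.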

Additional observations from a re-analysis of the deposited data

Results flagged for a closer look

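The log2 ratio of the members' summed TPM between SNHG26 guides and control guides was -0.16 on day 2 and 0.12 on day 3, so the ratio of day 3 exceeded that of day 2 by 0.275. It was picked out because the single pair of libraries on each day lay on opposite sides of 0. The difference was not tested, since each combination is 1 library. Without ZNF581 the ratios were -0.04 and -0.07, and the difference was -0.0365.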

How the results depend on the processing

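No gene passed between the guide arms under any alternative, and no member passed between the arms or between the days under any of them. The number that libraries share across arms is their day of doxycycline; around the mean of each arm, the deviations of libraries of the same day correlated at 0.0464 over all genes tested and at 0.133 over the 75 members, and with only 2 days the number was not taken as a pair. With the day as a term, 0 genes passed between the arms, with 359 at an unadjusted p under 0.05. With the guide arm as a term, 0 passed between the days. Between the days, the count of 3 genes went to 0 under quantile normalization, without a trend, without a filter, at either other pseudocount (0.1 or 5), and with any library left out (0 to 0). Leaving out a library leaves its group with 1, which is then assumed to vary like the other group, so these counts of 0 say nothing about stability. The adjusted p of ZNF682 between the arms, over the settings that tested it, ranged from 0.203 to 0.908. The members' median difference between the arms, -0.06, moved to -0.15 with a pseudocount of 0.1, -0.00575 with 5, 0.00902 without a filter, -0.22 at a mean of at least 5 TPM and -0.0812 under median ratio scaling, and ranged from -0.0711 to 0.00623 with each library left out. That between the days, -0.14, moved to -0.0642 with a pseudocount of 5 and -0.0239 without a filter, and ranged from -0.26 to -0.0737 with each library left out. The ratio of sums between the arms, -0.01, turned to 0.00714 over members with a value in all 4 libraries. It was -0.12 as a share of upper-bound reads, and ranged from -0.18 to 0.14 with each library left out. The ratio of sums between the days, 0.19, turned to -0.22 without ZNF581 and to -0.26 without the 5 highest members (chosen after seeing the data). It turned to -0.0125 as a share of upper-bound reads, and ranged from 0.11 to 0.27 with each library left out. The causes were not tested. Fewer than 20 estimated reads stood behind 155 members, which limits what could be detected for them at this depth.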
